A study of Mus musculus with 32 samples.

Results

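Wild-type mouse embryonic stem cells at day 0 were compared with organoids at day 2 of retinal differentiation, both of the Rx:GFP line. The comparison used 4 of the 32 libraries in the series, 2 for each day, taken by their labelled line and day, and every gene of the deposited expression table. Rx:GFP is a stem cell line named for a green fluorescent reporter of Rx, also called Rax, a homeobox gene of the early eye field. The series followed this line, a line labelled Mettl3 KO and that KO line with a METTL3-GRBD fusion (with and without Dex) at days 0, 2, 4 and 6. The day 0 samples are labelled ESCs of genotype WT with no treatment. The day 2 samples are labelled organoids of genotype WT, AGN treated, and the growth protocol gives GMEM with KSR, NEAA, β-ME, sodium pyruvate and AGN at 0.1 µM. What AGN stands for, and the medium of the day 0 cells, are not given in the sources used here. Time, culture format and AGN changed together between the groups and cannot be told apart, nor can any difference in medium. The labels describe separate rounds of library preparation for the 2 libraries of a group but do not say that these came from separate cultures. The p-values therefore rest only on the spread between libraries of a group, pooled over the 16 groups of the series. This spread may be technical.

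Mouse embryonic stem cells in the naive state resemble the epiblast of the blastocyst before implantation. They are held there by the cytokine LIF, which acts through the kinase JAK and the transcription factor STAT3, and by a network of transcription factors such as Klf4, Esrrb, Tfcp2l1 and Nanog around the core factors Pou5f1 (Oct4) and Sox2. When these supports are withdrawn, the cells pass through a formative state that resembles the epiblast after implantation. In that state naive factors are switched off while Pou5f1 persists, and Fgf5, Otx2, Pou3f1 (Oct6) and the de novo DNA methyltransferase Dnmt3b are switched on. Neural and eye field genes follow later.

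Expression values are FPKM, fragment counts corrected for the length of the transcript and for library size, as the authors computed them. The depth recovered from the steps between low FPKM values was 28.2 and 40.9 M fragments for the day 0 libraries and 41.9 and 34.8 M for the day 2 libraries (M, mega). At these depths 3 fragments on a 2 kb transcript correspond to 0.053 FPKM or less, which covers counting error only. The day 0 pair differed more than any other pair of the series: the median distance of a gene's values from the mean of their pair was 0.0486 on the log2 scale, against 0.0271 to 0.0355 in the other 15 groups. The estimate of spread in the test below was shared by all 16 groups and made no allowance for this. The summed FPKM of mitochondrially encoded genes was 110992 and 84575 at day 0 and 104710 and 103604 at day 2. Genes that reached 1 FPKM in 2 or more of the 32 libraries were tested, 16276 in all. Changes are differences of log2(FPKM + 1), day 2 minus day 0, a scale that compresses changes at low FPKM. A gene rose or fell when its Benjamini-Hochberg adjusted p from limma, two-sided, was under 0.05.

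Of the 16276 genes, 4461 rose (27.4%) and 5860 fell (36.0%), together 10321 or 63.4%. When a log2 change of 1 or more was also required, 644 rose (3.96%) and 1146 fell (7.04%), together 1790 or 11.0%. The median change over all tested genes was -0.03. Both day 2 libraries lay above both day 0 libraries for 5664 genes (34.8%) and below both for 6955 (42.7%), together 12619 or 77.5%. Lack of overlap between days was therefore common, and the shares in this paragraph are the background for every list count below. Of the genes that changed by at least 1, 577 risers and 953 fallers were protein coding and 16 and 53 were lincRNAs. The number past this size depended on the handling of low values: it was 3126 with a pseudocount of 0.1 and 971 among genes with a mean of at least 5 FPKM. The split by direction depended on scaling: 47.7% of called genes rose after median-of-ratios scaling, against 43.2% without it.

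The genes with the largest rises among well expressed coding genes were led by Pim2, a serine/threonine kinase gene (chrX:7878262-7883432, plus strand, GRCm38). Pim2 stood at 10.5 and 9.52 FPKM at day 0 and 429.7 and 431 FPKM at day 2. Its libraries did not overlap between days, and the log2 change was 5.30 ± 0.04 (SE), adjusted p = 1.3e-24. Fgf5 and Pou3f1 came next and are described with the formative genes below. Car14 and Car4, which encode membrane-bound carbonic anhydrases, went from 0.43 and 0.45 to 33.7 and 34.5 FPKM (log2 change 4.61) and from 5.54 and 4.66 to 88.8 and 90.1 FPKM (3.89). Slc16a3, which encodes the lactate exporter MCT4, went from 12.8 and 9.71 to 249 and 248 FPKM (4.36). The other genes among the 15 largest rises were Vrtn (4.46), Cldn6 and Cldn7 (claudins of tight junctions, 4.39 and 3.64), Tmem54 (4.07), Sox3 (4.04), Lef1 (3.84), Arl4c (3.75), Jph4 (3.74) and Exosc6. Exosc6, which encodes a core subunit of the RNA exosome used by every cell, is listed at 0 in both day 0 libraries and at 27.9 and 24.2 FPKM at day 2. Such a listed 0 can be a failed estimate, so no fold is given for Exosc6.

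The largest fall belonged to Stra8, a gene induced by retinoic acid that is known for the entry of germ cells into meiosis (chr6:34920163-34939344, plus strand, GRCm38). Its level was 117 and 110.1 FPKM at day 0 and 0.14 and 0.22 FPKM at day 2. Both day 2 libraries were low but above the 0.053 FPKM given above for 3 fragments on 2 kb. The log2 change was -6.60 ± 0.09 (SE), adjusted p = 1.4e-21. Mras, a Ras-related GTPase gene, went from 64.8 and 69.3 to 0.27 and 0.8 FPKM (-5.49). Aqp3, which encodes a water and glycerol channel, went from 109 and 101 to 1.51 and 1.43 FPKM (-5.43). Cd37, a tetraspanin gene, went from 118 and 121 to 2.21 and 2.25 FPKM (-5.22). Inhbb, which encodes the beta B subunit of inhibins and activins, went from 27.5 and 29.9 to 0.07 and 0.11 FPKM (-4.77). All of these were readily detected in stem cells and stood below 3 FPKM at day 2. Also among the 15 largest falls were Bcl3, Socs3 and Klf4, described below, with Msc (-4.57), Mylpf (-4.25), Adgre5 (-4.12), Fam25c (-3.95), Khdc3 (-3.90), Ak7 (-3.88) and Myo1f (-3.85).

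Naive pluripotency genes fell almost without exception. Of 18 members, 17 fell and 1, Dppa3, rose, with a median change of -2.14, against 36.0% falling and 27.4% rising over all tested genes. Klf4, a zinc finger factor of the naive network, stood at 57.4 and 57.1 FPKM at day 0 and 2.49 and 2.27 FPKM at day 2 (chr4:55527143-55532466, minus strand, GRCm38). Its log2 change was -4.11 ± 0.07 (SE), adjusted p = 2.4e-19, the largest of the list. Tbx3, a T-box factor, went from 55.5 and 59.4 to 3.88 and 3.59 FPKM (-3.63). Esrrb, an orphan nuclear receptor, went from 183 and 182 to 23.2 and 23.7 FPKM (-2.90), and its partner in the naive network Tfcp2l1 went from 18.3 and 17.2 to 1.37 and 1.4 FPKM (-2.97). In each of these 4 genes the day 2 libraries lay close together and far below the day 0 libraries. Zfp42 (Rex1), a widely used marker of naive cells, went from 408 and 461 to 104 and 103 FPKM (-2.05), so it remained well expressed. Klf2, Klf5, Nr0b1 and Dppa5a were also still above 15 FPKM at day 2, with changes of -1.63, -2.35, -1.46 and -1.28. Prdm14, a repressor of de novo methylation and FGF signalling genes, dropped from 7.7 and 6.19 to 0.4 and 0.39 FPKM. Dppa3 (Stella) went the other way at a low level, from 5.41 and 5.89 to 8.42 and 7.89 FPKM (0.46 ± 0.11 (SE), adjusted p = 0.00088). The sum of FPKM over the list was 3518 and 3462 FPKM at day 0 and 1096 and 1086 FPKM at day 2.

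The core pluripotency genes divided. Of 10 members 7 fell, 2 rose and 1 did not pass the test, with a median of -0.37. Pou5f1, the POU factor that defines pluripotent cells, was nearly level at 868 and 900.3 FPKM at day 0 and 802 and 799 FPKM at day 2. Its small fall passed the test (-0.14 ± 0.05 (SE), adjusted p = 0.022), but not after median-of-ratios scaling or without day 0 library 2 or either day 2 library (adjusted p of 0.0659 to 0.129). Sox2, its partner, went from 232 and 262 to 156 and 155 FPKM (-0.67). Nanog, in contrast, stood at 181 and 173 FPKM at day 0 and 15.3 and 16.1 FPKM at day 2, a log2 change of -3.42 ± 0.04 (SE), adjusted p = 1.7e-21. Of the 17 naive genes that fell, Klf4 and Tbx3 fell by more than Nanog. Tdgf1 (Cripto), a co-receptor for Nodal, and Dppa2 fell by 2.11 and 1.85. Lin28a, an RNA-binding protein that blocks let-7 maturation, rose from 98.4 and 97.6 to 174 and 175 FPKM (0.82), and Utf1 rose from 728 and 663 to 906 and 889 FPKM (0.37). Dppa4, at 231 and 211 FPKM at day 0 and 181 and 188 FPKM at day 2, did not pass the test (-0.26 ± 0.18 (SE), adjusted p = 0.21).

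**Figure D1:**
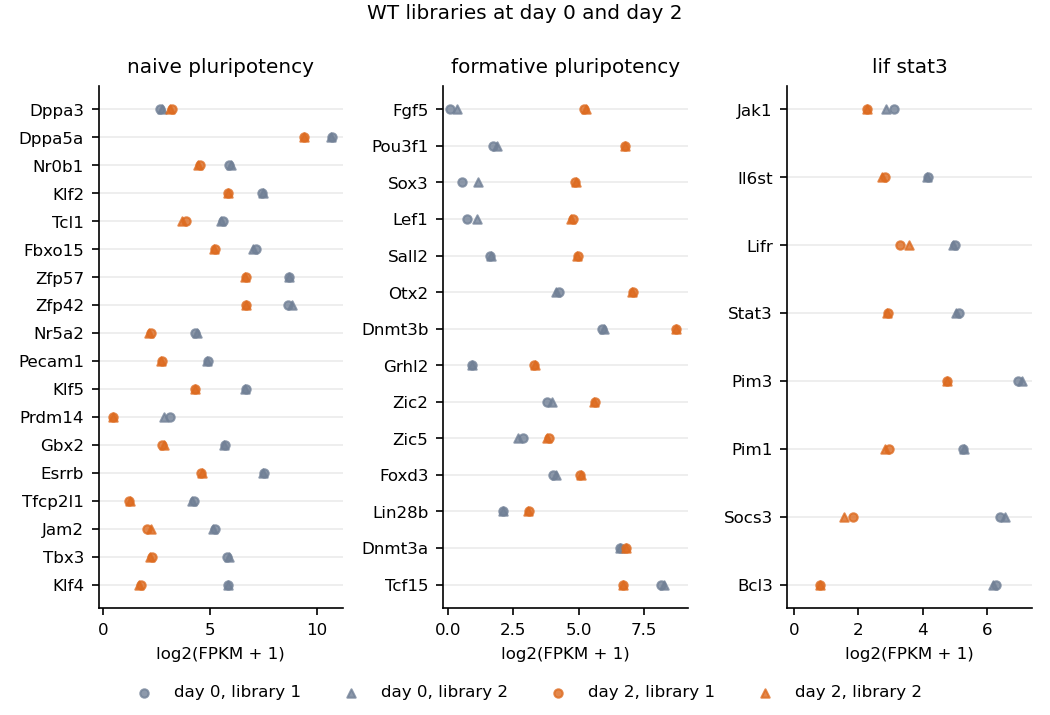
FPKM of naive pluripotency, formative pluripotency and LIF-STAT3 genes in the 4 WT libraries, as log2(FPKM + 1); grey marks day 0, orange day 2, and circles and triangles are libraries 1 and 2. Day 2 points lie left of day 0 points for 17 of 18 naive genes and for all 8 LIF-STAT3 genes, and right of them for 13 of 14 formative genes.

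Formative genes moved in the opposite direction. Of 14 members 13 rose and 1, Tcf15, fell, with a median change of 2.59. Fgf5, a growth factor of the epiblast after implantation (chr5:98254184-98277030, plus strand, GRCm38), stood at 0.06 and 0.25 FPKM at day 0 and 35.7 and 37.7 FPKM at day 2. Fgf5 was low in stem cells, close to the counting limit in day 0 library 1, and clearly expressed in both day 2 libraries. Its log2 change was 5.03 ± 0.09 (SE), adjusted p = 1.9e-19. Pou3f1, a POU factor of the late epiblast and early neural plate (chr4:124656807-124660655, plus strand, GRCm38), went from 2.24 and 2.68 to 109 and 107 FPKM (4.98 ± 0.06 (SE), adjusted p = 1.3e-22). Otx2, a homeobox factor of the epiblast and later of the forebrain and eye, went from 18.1 and 16.5 to 134 and 131 FPKM (2.87). Dnmt3b went from 59.1 and 61 to 426 and 423 FPKM (2.80). These 4 genes were among the most clearly separated of the list. All 14 members, and 77.5% of all tested genes, were without overlap between days. Sox3, a SoxB1 factor, and Lef1, a nuclear effector of Wnt signalling, went from 0.44 and 1.2 to 28.1 and 28.4 FPKM and from 0.64 and 1.13 to 26.3 and 25.1 FPKM. Sall2, Grhl2, Zic2, Zic5, Foxd3, Lin28b and Dnmt3a rose by 3.34, 2.38, 1.72, 1.04, 0.96, 0.96 and 0.24. Tcf15, a bHLH factor expressed in stem cells that are about to leave the naive state, went from 285 and 308 to 102 and 103 FPKM (-1.52 ± 0.09 (SE), adjusted p = 7.4e-12). The formative genes summed to 500.1 and 529 FPKM at day 0 and 1111 and 1106 FPKM at day 2.

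All 8 listed genes of the LIF-STAT3 axis fell (median -2.21), in a list that holds Pim1 and Pim3 but leaves out Pim2. Among the targets, Bcl3, a nuclear IκB-like protein, stood at 77.3 and 71.8 FPKM at day 0 and 0.76 and 0.77 FPKM at day 2 (-5.42 ± 0.10 (SE), adjusted p = 3.3e-19). Socs3, the feedback inhibitor of JAK signalling, stood at 84.2 and 93.1 FPKM at day 0 and 2.56 and 1.94 FPKM at day 2 (-4.79 ± 0.08 (SE), adjusted p = 4.6e-20). Both targets were at least 70 FPKM in every day 0 library and under 3 FPKM in every day 2 library. The target kinases Pim1 and Pim3 fell by 2.38 and 2.25, while Pim2, named above, rose by 5.30. The transducer Stat3 itself went from 33.9 and 32.1 to 6.66 and 6.51 FPKM (-2.16). The receptor subunits Lifr and Il6st (gp130) fell by 1.55 and 1.37, and the kinase Jak1 by 0.71.

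**Figure D2:**
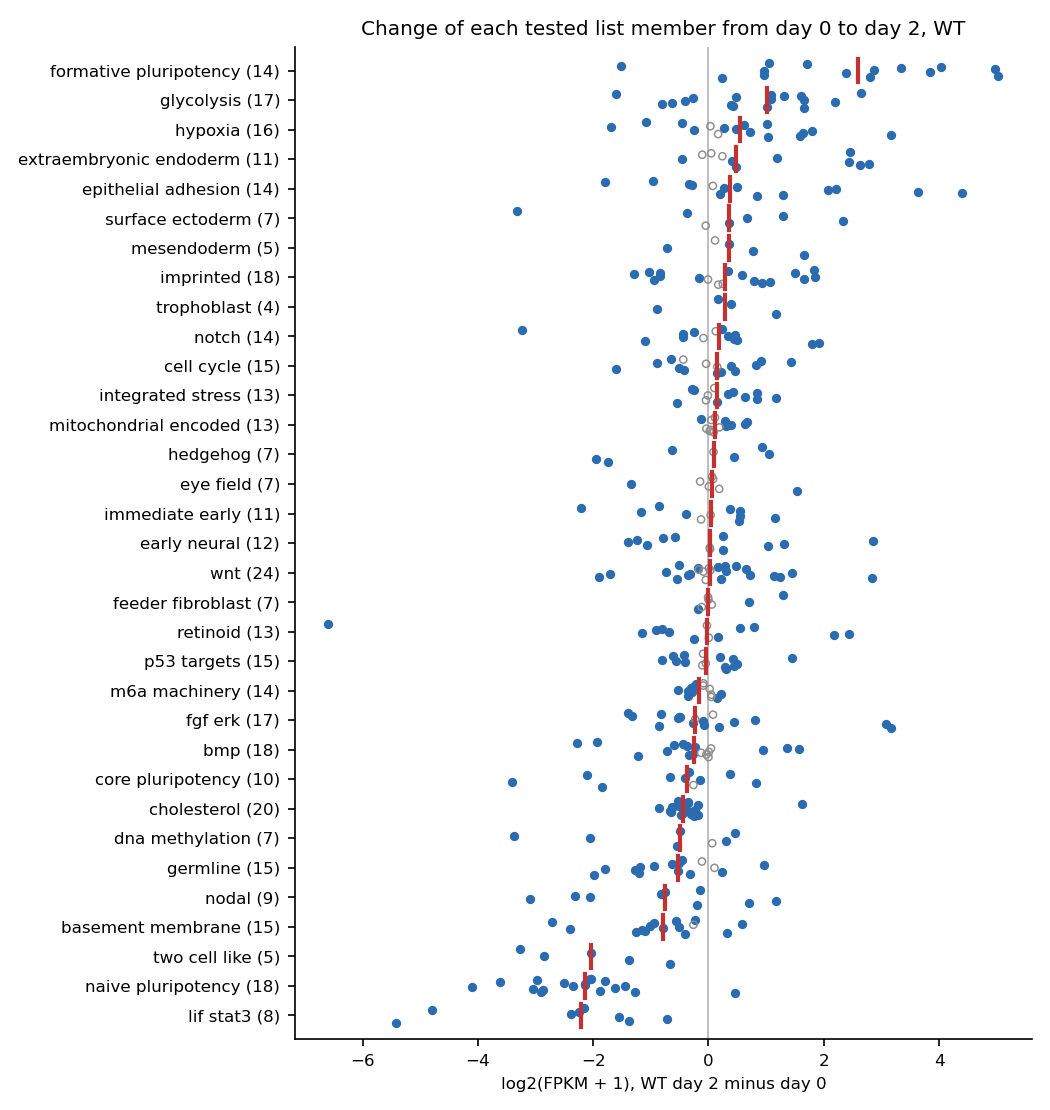
Change in log2(FPKM + 1) from day 0 to day 2 in WT for each tested member of the 33 gene lists, with the number tested in brackets; filled points passed the test, open points did not, and red bars are list medians. LIF-STAT3, naive pluripotency and two-cell genes have medians near or below -2, and formative genes have a median of 2.59.

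Genes of DNA methylation moved in both directions. The erasers Tet2 and Tet1 fell by the most, while Dnmt3b and Dnmt3a, given with the formative genes, rose by 2.80 and 0.24. Tet2 stood at 19 and 19.6 FPKM at day 0 and 0.96 and 0.96 FPKM at day 2 (-3.37 ± 0.10 (SE), adjusted p = 1.7e-16). Tet1, the main TET enzyme of stem cells, went from 59.9 and 53.5 to 12.8 and 13 FPKM (-2.05), and Tet3 rose from 1.59 and 1.61 to 2.57 and 2.56 FPKM (0.46). The maintenance methyltransferase Dnmt1 and its partner Uhrf1 fell by 0.54 and 0.49. Dnmt3l, a cofactor of de novo methylation, was at 222 and 221 FPKM at day 0 and 235 and 229 FPKM at day 2 and did not pass the test (adjusted p = 0.36). Of the 7 genes in this list, which leaves out Dnmt3a and Dnmt3b, 2 rose and 4 fell (median -0.49). Over all tested genes 27.4% rose and 36.0% fell. Germline genes, many of which have methylated promoters in somatic cells, fell in 11 of 15 cases and rose in 2 (median -0.53). Dazl, an RNA-binding protein of germ cells, went from 12 and 11.7 to 2.32 and 2.15 FPKM (-1.99), and Sycp3, of the synaptonemal complex, rose from 15.2 and 14.6 to 30.6 and 29.2 FPKM (0.96). Genes of the rare two-cell-like state of stem cell cultures fell in 5 of 5 cases (median -2.04). Zscan4f went from 25.5 and 24.8 to 1.62 and 1.82 FPKM (-3.26) and Zscan4c from 12.4 and 13 to 0.92 and 0.86 FPKM (-2.86), but these are near-identical gene copies and the split of fragments among them is uncertain. In bulk RNA, fewer cells of a kind and less RNA per cell cannot be told apart.

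Retinoid genes included the strongest fall of all and a clear rise. Of 13 tested members 5 rose and 6 fell (median -0.03). Beside Stra8, the receptor genes Rara and Rarg fell from 32.1 and 33.2 to 16.7 and 17.1 FPKM and from 126 and 119 to 70 and 68.4 FPKM. The synthesis enzyme Aldh1a2 stayed under 0.5 FPKM in all 4 libraries. Rdh10 and Dhrs3, also of this list, moved in opposite directions. Rdh10 rose from 1.68 and 1.67 to 3.63 FPKM in both day 2 libraries (0.79). Dhrs3 fell from 1.7 and 2.46 to 0.38 FPKM in both day 2 libraries (-1.15). Cyp26a1, which encodes an enzyme that degrades retinoic acid, stood at 0.71 and 0.76 FPKM at day 0 and 8.38 and 8.37 FPKM at day 2 (2.43 ± 0.10 (SE), adjusted p = 7.3e-14). The binding protein gene Crabp2 rose from 16.2 and 14.2 to 72.8 and 71.9 FPKM (2.18). Receptors and Stra8 were thus lower at day 2 while Cyp26a1 and Crabp2 were higher. Lack of overlap between days held for all of them and for 77.5% of all tested genes. The RefSeq promoter window of Stra8 (GRCm38.p6, chr6:34920698-34920997, plus strand, 300 bases) is shown because Stra8 fell most; capitals mark AGGTCA, the core of sites bound by nuclear receptors, searched on both strands. The window held 2 matches. AGGTCA occurred in 3 of 20 promoters of the 11 matched retinoid genes and in 16.3% of all 32851 RefSeq promoters, and a match is a description, not a site.
Stra8: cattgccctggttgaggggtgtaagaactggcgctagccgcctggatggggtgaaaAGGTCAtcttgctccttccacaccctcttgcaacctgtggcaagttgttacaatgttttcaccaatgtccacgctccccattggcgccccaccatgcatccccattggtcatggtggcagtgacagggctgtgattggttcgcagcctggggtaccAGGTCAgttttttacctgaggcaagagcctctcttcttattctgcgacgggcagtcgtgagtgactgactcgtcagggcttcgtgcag

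Among growth factor pathways, the Nodal genes fell most. Of 9 tested members 7 fell and 2 rose (median -0.76). The ligand Nodal went from 40.6 and 42.7 to 7.46 and 7.61 FPKM (-2.32 ± 0.06 (SE), adjusted p = 3.2e-17). Its feedback inhibitors Lefty1 and Lefty2 went from 51.4 and 65.6 to 5.13 and 6.76 FPKM (-3.10) and from 63.1 and 73.6 to 15.1 and 16.3 FPKM (-2.05). Ligand and inhibitors were thus lower in both day 2 libraries. Foxh1, a transcription factor that acts with the Smad effectors of Nodal, rose from 74.6 and 70.7 to 119.9 and 118 FPKM (0.70), and the activin antagonist Fst rose from below 0.5 FPKM to 2.27 and 1.63 FPKM. In the BMP list 10 of 18 fell and 3 rose (median -0.25). The ligand Bmp4 fell from 93.5 and 90.7 to 40 and 37.4 FPKM (-1.23), the inhibitory Smads Smad6 and Smad7 fell by 2.28 and 1.94, and the targets Id1 and Id3 went in opposite directions, from 55.2 and 56 to 33.8 and 33 FPKM and from 16.2 and 16.1 to 50.3 and 49.6 FPKM.

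FGF-ERK genes split by member. Of 17 members 5 rose and 10 fell (median -0.23). Of the ligands, Fgf4 of naive cells fell from 39.9 and 40.6 to 33.7 and 32.7 FPKM (-0.27), while Fgf15 rose from 0.54 and 0.56 to 11.6 and 12.6 FPKM (3.08) and Fgf5 rose as given above. Of the feedback genes, Dusp4, an ERK phosphatase, stood at 7.24 and 7.16 FPKM at day 0 and 72.8 and 72.9 FPKM at day 2 (3.17 ± 0.03 (SE), adjusted p = 5.4e-24). Spry4 and Spred2, both inhibitors of the same pathway, went from 39.3 and 38.6 to 14.2 and 14 FPKM and from 27 and 25.6 to 10.2 and 9.58 FPKM. Feedback genes of 1 pathway therefore moved in both directions, each without overlap between days, as for 77.5% of all tested genes. Dusp6 rose slightly from 44.2 and 42.4 to 48.7 and 49.5 FPKM (0.18), and the ETS target Etv4 fell by 0.86.

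Wnt genes showed a change of receptors. Of 24 tested members 11 rose and 8 fell (median 0.02). The Frizzled receptor Fzd2 stood at 2.82 and 2.87 FPKM at day 0 and 26.5 and 26.6 FPKM at day 2 (2.84 ± 0.04 (SE), adjusted p = 3.2e-21), and Fzd7 went from 18.1 and 18.4 to 44.3 and 44.4 FPKM (1.24). Fzd5, a receptor of stem cells and later of the eye field, fell from 30.5 and 31.6 to 7.35 and 7.9 FPKM (-1.89) and returned to 35.7 FPKM at day 4. The secreted antagonist Sfrp2 rose from 11.2 and 10.6 to 31.6 and 31.5 FPKM (1.45), and Notum, a secreted enzyme that inactivates Wnt proteins, fell from 83 and 96 to 26.6 and 26.5 FPKM (-1.71). The common target Axin2 was at 2.02 and 2.55 FPKM at day 0 and 2.07 and 2.27 FPKM at day 2 and did not pass the test (adjusted p = 0.64). Notch ligands Dll1 and Dll3 rose from 0.59 and 0.7 to 4.42 and 4.96 FPKM (1.79) and from 1.41 and 1.3 to 8.19 and 7.72 FPKM (1.93), while the receptor Notch4 fell from 16.2 and 30.1 to 1.51 and 1.42 FPKM (-3.23) and the target Hes1 fell from 32.6 and 32.1 to 14 and 15.2 FPKM (-1.10). Other targets in the Notch list did not fall with Hes1. Hes5, Hey1 and Nrarp, at 3.48 FPKM or less, rose by 0.49, 0.44 and 0.23, and Hey2 did not pass the test. In the Notch list 7 of 14 rose and 5 fell (median 0.18). In the hedgehog list 3 of 7 rose and 3 fell (median 0.09): the effectors Gli1 and Gli2 fell by 1.74 and 1.95, and the transducer Smo rose by 0.93.

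Most genes of glycolysis rose, several to very high levels. Of 17 members 12 rose and 5 fell, with a median of 1.02, and their FPKM summed to 9461 and 9181 FPKM at day 0 and 16826 and 16772 FPKM at day 2. Ldha, which encodes the subunit of lactate dehydrogenase that favours lactate formation, stood at 414 and 410.0 FPKM at day 0 and 1899 and 1898 FPKM at day 2 (2.20 ± 0.01 (SE), adjusted p = 7.6e-26). Tpi1, triosephosphate isomerase, went from 86.9 and 88.1 to 555 and 546 FPKM (2.64). Aldoa, which splits the hexose, and Pgk1, Pkm and Eno1 of the lower pathway rose by 1.65, 1.61, 1.30 and 1.02. Gapdh rose less, from 5133 and 4863 to 6704 and 6662 FPKM (0.42). The 5 that fell sit at the entry, the upper part or the exit of the pathway: the glucose transporter Slc2a3 (GLUT3), from 151 and 148 to 48.5 and 48.4 FPKM (-1.60), the hexokinases Hk1 and Hk2 (-0.80 and -0.63), the phosphofructokinase isoform Pfkp (-0.27) and Pdk1 (-0.41), a kinase that restrains pyruvate dehydrogenase. Other isoforms went the other way: the transporter Slc2a1 (GLUT1) rose from 125 and 116 to 259 and 252 FPKM (1.08) and the phosphofructokinase Pfkl rose from 48.1 and 51.2 to 159 and 158 FPKM (1.66).

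Other targets of the hypoxia-inducible factors did not move as 1 group. Of 16 members 10 rose and 4 fell (median 0.54). Bnip3, a mitophagy receptor, stood at 6.61 and 6.61 FPKM at day 0 and 68.8 and 66.8 FPKM at day 2 (3.18 ± 0.03 (SE), adjusted p = 2.8e-23). Ddit4 (REDD1), an inhibitor of mTORC1, went from 16.2 and 16.9 to 53.2 and 54.1 FPKM (1.64), and the oxygen sensor Egln3 went from 0.65 and 0.64 to 4.66 and 4.74 FPKM (1.79). The classical target Vegfa fell from 18.5 and 18.7 to 8.24 and 8.3 FPKM (-1.08), and the histone demethylase gene Kdm3a fell from 61.2 and 57.9 to 18.2 and 17.5 FPKM (-1.68). Car9, a marker of strong hypoxia, was at 0.33 and 0.95 FPKM at day 0 and 0.56 and 1.1 FPKM at day 2 and did not pass the test (adjusted p = 0.61). Promoter windows of Ldha (chr7:46845554-46845853, plus strand) and Bnip3 (chr7:138909457-138909756, minus strand), 300 bases each from RefSeq GRCm38.p6, are shown. They were picked because these genes rose clearly and hold the core of the hypoxia response element, so they do not stand for the lists. Capitals mark ACGTG on either strand; CACGTG is a palindrome, also the E-box core, and counts as 2 matches. This window of Ldha held 5 matches and that of Bnip3 2. The other Ldha window in the RefSeq table (chr7:46846832-46847131, plus strand) held 0.
Ldha: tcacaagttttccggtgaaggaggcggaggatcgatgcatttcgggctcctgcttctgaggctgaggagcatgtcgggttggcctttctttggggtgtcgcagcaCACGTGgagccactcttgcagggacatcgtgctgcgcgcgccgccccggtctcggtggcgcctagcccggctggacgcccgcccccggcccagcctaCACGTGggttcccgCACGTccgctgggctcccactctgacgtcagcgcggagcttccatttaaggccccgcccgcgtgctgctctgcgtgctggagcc
Bnip3: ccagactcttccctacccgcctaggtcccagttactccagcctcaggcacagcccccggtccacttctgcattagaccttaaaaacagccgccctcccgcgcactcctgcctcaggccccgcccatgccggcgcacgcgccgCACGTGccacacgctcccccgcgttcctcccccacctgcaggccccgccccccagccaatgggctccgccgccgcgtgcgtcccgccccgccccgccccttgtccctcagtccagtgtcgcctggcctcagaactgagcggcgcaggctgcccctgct
ACGTG was present in 13 of 20 promoters of the 14 matched hypoxia genes, in 12 of 27 promoters of the 16 matched glycolysis genes and in 19.6% of all 32851 promoters. These lists were drawn up partly from known targets of the factors that bind this core. Of the genes that fell, Kdm3a held no match in its 3 windows and Hk2 held 2. Of the genes that rose, Tpi1, Pfkl and Eno1 held no match in any window. Whether they rose or fell, 12 of the 14 matched hypoxia genes and 10 of the 16 matched glycolysis genes held a match in some window.

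Nearly all genes of cholesterol synthesis fell, each by less than 1 on the log2 scale. Of 20 members 19 fell and 1 rose (median -0.44). Hmgcs1, which encodes an early enzyme of the pathway, stood at 79.9 and 79.2 FPKM at day 0 and 62.1 and 62.5 FPKM at day 2 (-0.35 ± 0.02 (SE), adjusted p = 8.5e-11). The master regulator Srebf2 went from 81.3 and 81.9 to 55.5 and 57 FPKM (-0.53). Sqle, Fdps, Msmo1 and Dhcr7 fell by 0.35, 0.44, 0.64 and 0.48. Day 2 libraries lay below day 0 libraries for each of these.

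**Figure D3:**
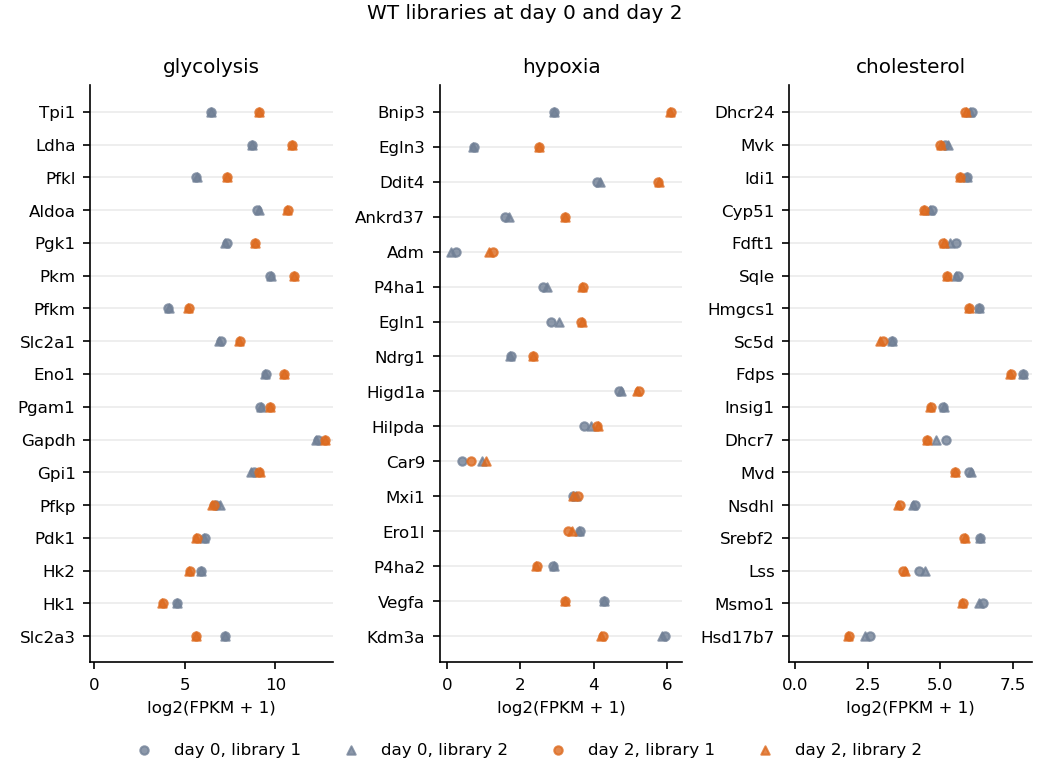
FPKM of glycolysis, hypoxia and cholesterol genes in the 4 WT libraries, as log2(FPKM + 1); grey marks day 0, orange day 2, and circles and triangles are libraries 1 and 2. Day 2 points lie right of day 0 for 12 of 17 glycolysis genes, and slightly to the left for the 17 of 20 cholesterol genes that are drawn, which do not include the 1 that rose.

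Most genes of the epithelial adhesion list rose. Of its 14 members 9 rose and 4 fell (median 0.38). The list also holds genes linked to mesenchymal cells, so these counts are not of epithelial genes alone. Epcam, an epithelial cell adhesion molecule, stood at 58.9 and 57.9 FPKM at day 0 and 254 and 247 FPKM at day 2 (2.08 ± 0.06 (SE), adjusted p = 5.9e-16). Cdh1 (E-cadherin) went from 68 and 66.1 to 121 and 120.2 FPKM (0.84), and Cldn6 went from 5.41 and 3.43 to 112 and 109.7 FPKM. Esrp1, a splicing regulator of epithelial cells, rose from 2.44 and 2.34 to 14.7 and 14.8 FPKM (2.22). Genes linked to mesenchymal cells went both ways. Vim (vimentin) fell from 252 and 262 to 73 and 72.8 FPKM (-1.80), and Zeb1 from 4.1 and 3.6 to 1.51 and 1.48 FPKM (-0.96). Cdh2 (N-cadherin), which also replaces E-cadherin in neural tissue, rose from a low level, from 1.57 and 1.56 to 5.34 and 5.22 FPKM (1.29). Keratins Krt8 and Krt18 rose by 1.30 and 2.33. Basement membrane genes fell in 12 of 15 cases and rose in 2 (median -0.78). The linker Nid1 went from 17 and 15.5 to 1.69 and 1.56 FPKM (-2.71), the fibronectin receptor subunit Itga5 went from 29.4 and 27.6 to 4.35 and 4.79 FPKM (-2.40), and fibronectin itself, Fn1, went from 133 and 142 to 66 and 61 FPKM (-1.10). Lamb1, a laminin subunit, rose from 12 and 11.8 to 18.2 and 18.3 FPKM (0.58).

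Genes of the eye field were at 4.88 FPKM or less at day 2 and early neural genes moved in both directions, so the label of retinal organoid is not borne out by retinal markers at this day. Rax stood at 0.36 and 0.3 FPKM at day 0 and 0.13 and 0.28 FPKM at day 2, and Six3, a forebrain and eye homeobox gene, at 0.07 and 0.01 FPKM at day 0 and 0.11 and 0.09 FPKM at day 2. Neither passed the test, although without day 2 library 2 the fall of Rax did (log2 change -0.24, adjusted p = 0.0079). The eGFP row of the table stood at 0.09 and 0.86 FPKM at day 0, 0.22 and 0.27 at day 2 and 31.4 and 32.3 at day 4, when Rax reached 31.1 ± 0.59 FPKM (SD, n = 2). Of 7 tested eye field genes 1 rose and 1 fell (median 0.06). Hesx1, of the anterior neural plate, rose from 0.94 and 0.92 to 4.38 and 4.88 FPKM (1.54 ± 0.13 (SE), adjusted p = 1.8e-09) and stood at 155 FPKM at day 4. Pax6 fell from 3.94 and 4.09 to 0.59 and 1.47 FPKM (-1.34). In the early neural list 5 of 12 rose and 5 fell (median 0.02). Sox11 rose from 0.76 and 0.89 to 12.2 and 12.1 FPKM (2.85) and Nes (nestin) from 5.53 and 6.54 to 16.3 and 16.5 FPKM (1.31), whereas Sox1, the defining factor of neural plate cells, fell from 3.52 and 4.28 to 0.82 and 0.91 FPKM (-1.39), and Dcx stayed at or under 0.02 FPKM. Tubb3, a neuronal tubulin, was the most abundant of this list and fell from 152 and 159.5 to 88.5 and 90 FPKM (-0.79). Pou5f1 near 800 FPKM with Fgf5, Otx2 and Pou3f1 expressed, and Rax, Six3 and Sox1 under 1 FPKM, was the marker profile of the day 2 libraries.

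**Figure D4:**
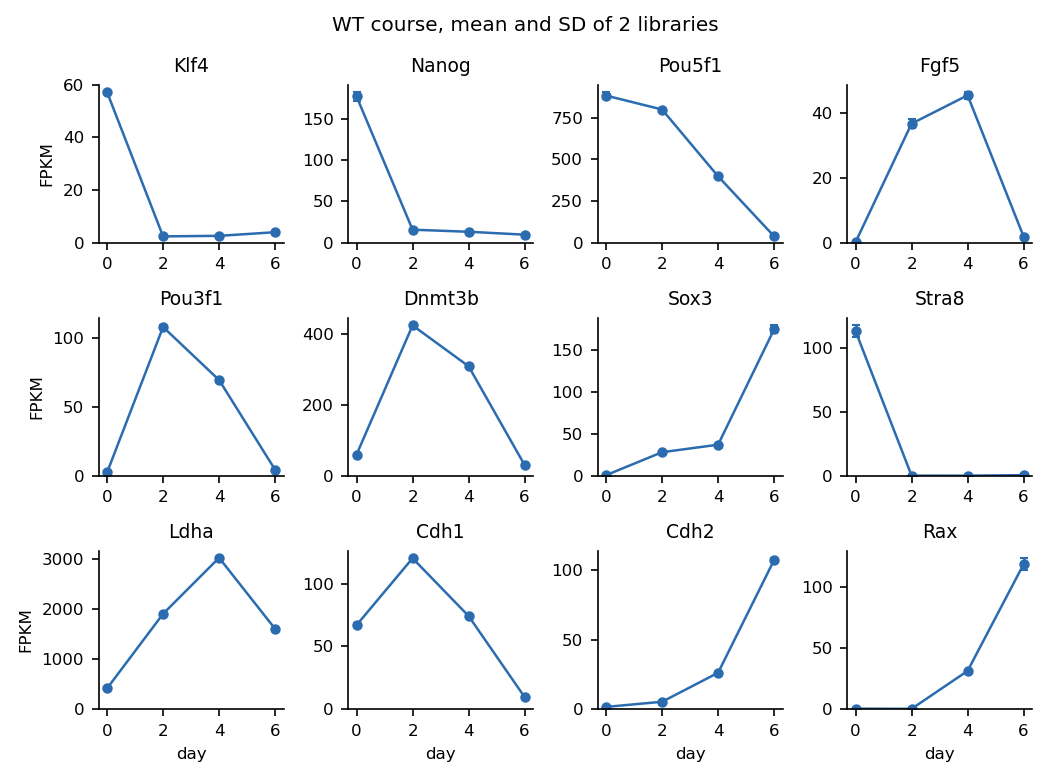
Mean FPKM and SD of the 2 WT libraries at days 0, 2, 4 and 6 for 12 genes, on linear axes that start at 0. Klf4 and Stra8 are near 0 from day 2, Fgf5 and Dnmt3b are above their day 0 level at day 2, and Rax is near 0 at day 2 and at 31.1 FPKM at day 4.

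Markers of other cell types were examined for the same libraries. Of 11 extraembryonic endoderm genes 7 rose and 1 fell (median 0.47, or 1.93 with a pseudocount of 0.1), and their FPKM summed to 24.4 and 22.9 FPKM at day 0 and 87 and 89.3 FPKM at day 2. Cubn and Amn, which encode the 2 parts of the cubam endocytic receptor of visceral endoderm, stood at 0.47 and 0.53 FPKM at day 0 and 9.51 and 9.18 FPKM at day 2 (2.79 ± 0.05 (SE), adjusted p = 7.1e-20) and 2.58 and 3.59 FPKM at day 0 and 22.7 and 25.2 FPKM at day 2 (2.62 ± 0.15 (SE), adjusted p = 1.1e-11). The adaptor gene Dab2 went from 6.19 and 4.46 to 32.8 and 33.4 FPKM (2.44). Ttr, a secreted carrier of visceral endoderm, is listed at 0 in both day 0 libraries and at 4.99 and 4 FPKM at day 2. The factors Gata6 and Gata4, which specify this lineage, were at 3.65 and 4.41 and 5.42 and 5.31 FPKM at day 2, with changes of -0.45 and 0.40, and Sox7 did not pass the test. The part of such cells in the other results was not tested.

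For the mesendoderm, 3 of 5 tested genes rose and 1 fell. Sums over all 10 members, tested or not, were 9.58 and 10.4 FPKM at day 0 and 18.4 and 16.6 FPKM at day 2. The defining genes T, Mixl1 and Mesp1 were too low to be tested, and Eomes, also a formative and extraembryonic gene, rose from 1.55 and 1.42 to 6.94 and 6.68 FPKM (1.65). The other risers were Foxa2 (0.78) and Sox17 (0.35). Of the trophoblast list 3 of 4 tested genes rose and 1 fell, and Cdx2 and Elf5 were too low to be tested. Sums over all 9 members were 5.87 and 6.15 FPKM at day 0 and 8.89 and 6.17 FPKM at day 2. Of 7 surface ectoderm genes 4 rose and 2 fell (median 0.36). Tfap2c, also expressed in naive cells, fell from 27 and 26.4 to 1.88 and 1.65 FPKM (-3.33). Of 7 tested fibroblast genes, which would mark feeder cells, 2 rose and 1 fell. Sums over all 8 members were 6.14 and 5.94 FPKM at day 0 and 15.2 and 16.7 FPKM at day 2. Most of this was Thy1, which went from 5.45 and 5.28 to 13.8 and 15.6 FPKM. Col1a1 and Col1a2 were under 0.5 FPKM and Lum was listed at 0 in all 4 libraries.

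Imprinted genes of the Dlk1-Meg3 locus on chromosome 12 gave some of the largest changes in absolute level. Meg3, a maternally expressed noncoding RNA, stood at 281 and 287 FPKM at day 0 and 894 and 896 FPKM at day 2 (1.65 ± 0.02 (SE), adjusted p = 2.1e-21), and its neighbours Rian and Mirg went from 147 and 138 to 414 and 403 FPKM and from 44.3 and 43.6 to 163 and 159 FPKM. Snrpn, of another imprinted domain, went from 60.8 and 59.5 to 218 and 216 FPKM (1.83), and H19 went from 54.9 and 61.1 to 123 and 123 FPKM (1.07). All 5 of these RNAs were higher in both day 2 libraries. The paternally expressed Dlk1 was at 1.94 and 2.35 FPKM at day 0 and 2.87 and 2.58 FPKM at day 2 and did not pass the test (adjusted p = 0.082). Of 18 tested imprinted genes 9 rose and 6 fell (median 0.29), and the fallers included Phlda2, from 22.8 and 23 to 9.26 and 8.28 FPKM, and Peg10, from 76.6 and 72.4 to 40.8 and 41.1 FPKM.

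Cell cycle genes showed exchanges within families. Of 15 members 7 rose and 5 fell (median 0.14, or -0.03 without day 0 library 2). The D cyclin Ccnd3 fell from 227 and 207 to 70.3 and 70.3 FPKM (-1.61) and Ccnd1 rose from 25.7 and 25.8 to 35.4 and 35.9 FPKM (0.45). Of the Myc family, Myc fell from 53.2 and 48.8 to 27.1 and 26.9 FPKM (-0.89) while Mycn and Mycl rose from 47.5 and 50.9 to 94.2 and 92.2 FPKM (0.91) and from 2.57 and 2.38 to 8.35 and 8.41 FPKM (1.43). The named members of each family thus moved in both directions without overlap between days, as for 77.5% of all tested genes. Of 15 p53 genes 7 rose and 5 fell (median -0.05), led by Pmaip1 (Noxa), from 13.1 and 12.8 to 37.3 and 37.4 FPKM (1.45), and Trp53 itself fell from 386 and 384 to 254 and 246 FPKM (-0.62). Of 13 tested integrated stress response genes 7 rose and 3 fell (median 0.14), with Chac1 at 1.17 and Asns at -0.55. Of 11 tested immediate early genes 5 rose and 4 fell (median 0.04): Junb went from 40.8 and 54.1 to 9.88 and 8.94 FPKM (-2.21) and Egr1 from 1.94 and 1.76 to 5.24 and 5.45 FPKM (1.16). Of 13 mitochondrially encoded genes 5 rose and 1 fell (median 0.11, or -0.02 without day 0 library 2). Among the 14 genes of the m6A machinery 2 rose and 7 fell (median -0.16): Mettl3, the catalytic writer, was at 36.8 and 33.1 FPKM at day 0 and 40.2 and 41.2 FPKM at day 2 (0.21, adjusted p = 0.0963 without day 0 library 2), and its partner Wtap fell from 75.6 and 83.8 to 55.5 and 54.7 FPKM (-0.52).

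Chromosome 8 had the lowest median change of all chromosomes. Its 858 tested genes had a median of -0.13, which was -0.11 relative to the rest, and 189 rose and 397 fell. Chromosome 16 was next with -0.08 relative to the rest (99 of 478 genes rose and 195 fell), and the X chromosome stood 0.07 above the rest. Without chromosome 8, 9729 genes were called.

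The day 2 libraries also entered the comparison of day 4 with day 2, so values of that step are given side by side and not as a test of persistence. In that comparison 9750 genes (59.9%) passed the test, 5578 higher (34.3%) and 4172 lower (25.6%). After median-of-ratios scaling 9872 genes passed, of which 48% were higher, against 57.2% without scaling. Zfp42, at 104 and 103 FPKM at day 2, was at 16.8 ± 0.42 FPKM (SD, n = 2) at day 4, and Dppa5a, at 682 and 681, was at 164 ± 1.98 FPKM (SD, n = 2). Pou5f1 was at 399 ± 3.36 FPKM (SD, n = 2). Of the genes that rose by day 2, Ldha reached 3015 ± 5.95 FPKM (SD, n = 2), Bnip3 149 ± 1.95 FPKM (SD, n = 2) and Crabp2 344 ± 4.14 FPKM (SD, n = 2). Fgf5 was at 45.4 ± 1.01 FPKM (SD, n = 2), Pou3f1 at 69.5 ± 0.76 FPKM (SD, n = 2) and Cdh1 at 74.3 ± 0.95 FPKM (SD, n = 2). Hmgcs1, at 62.1 and 62.5 FPKM at day 2, was at 113 ± 0.98 FPKM (SD, n = 2) at day 4.

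The same step was tested against the libraries labelled Mettl3 KO, which share none with WT. Mettl3 RNA in those libraries was 43.4 ± 0.67 FPKM at day 0 and 39.9 ± 1.36 FPKM at day 2 (SD, n = 2), beside 36.8 and 33.1 FPKM at day 0 and 40.2 and 41.2 FPKM at day 2 in WT. The KO libraries lay above WT at day 0 and overlapped WT at day 2, so the knockout is known from the labels only. Of the 16276 tested genes, 1790 changed by at least 1 in WT and 2043 in the KO line. Both lines shared 1131 in the same direction (63.2% of the WT genes and 55.4% of the KO genes) and 0 in the opposite direction. The difference between the lines in the change to day 2 (KO minus WT) passed the test for 7952 genes (48.9%), of which 757 (4.65%) differed by at least 1. Of these 7952 genes 73.0% were higher in KO. After scaling by the median of ratios 7663 genes passed, of which 55.4% were higher in KO, and the scaling moved the median difference from 0.14 to 0.04. Of the 1790 WT genes, 222 differed by at least 1, and 133 were not called in the KO line.

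For naive and formative genes the median changes in the KO line were -2.27 and 2.36, beside -2.14 and 2.59 in WT. Of the 18 naive genes 7 had a higher and 6 a lower change in KO, or 4 and 7 after scaling. Of the 14 formative genes 4 had a higher and 6 a lower change, or 3 and 8 after scaling. Klf4 changed by -3.33 in KO and Fgf5 by 5.70. All 20 cholesterol genes had a higher change in KO, with and without scaling, and their median in KO was 0.46. Hmgcs1, which fell in WT, changed by 0.71 in KO (difference 1.06 ± 0.03 (SE), adjusted p = 2.3e-14). Hypoxia genes differed in 14 of 16 cases, all higher in KO, or 13 higher and 1 lower after scaling. Ddit4 went from 16.2 and 16.9 to 53.2 and 54.1 FPKM in WT and was 10.1 ± 0.66 FPKM at day 0 and 211 ± 4.49 FPKM at day 2 (SD, n = 2) in KO (difference 2.62 ± 0.06 (SE), adjusted p = 1.1e-15). Adm, which encodes the vessel-active peptide adrenomedullin, rose from 0.19 and 0.07 to 1.4 and 1.23 FPKM in WT and was 0.18 ± 0.08 FPKM at day 0 and 20.8 ± 0.64 FPKM at day 2 (SD, n = 2) in KO (difference 3.17 ± 0.11 (SE), adjusted p = 9.9e-14). Both genes therefore rose in both lines and by more in KO.

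Extraembryonic endoderm genes differed in the other direction. Of 11 members 7 had a lower change in KO and none a higher one, or 8 and none after scaling. The lines also differed before this step. Mean FPKM at day 0 was 1.06 in KO and 5.86 in WT for Gata6, 0.71 and 3.825 for Gata4, and 0.1 and 1.08 for Sox7. Amn, which rose in WT, was 1.25 ± 0.46 FPKM at day 0 and 1 ± 0.16 FPKM at day 2 (SD, n = 2) in KO (difference -2.78 ± 0.21 (SE), adjusted p = 4.6e-09), and Cubn was 0.02 ± 0.01 FPKM at day 0 and 0.15 ± 0.01 FPKM at day 2 (SD, n = 2) (difference -2.61 ± 0.07 (SE), adjusted p = 1.8e-15). Cyp26a1, which rose from 0.71 and 0.76 to 8.38 and 8.37 FPKM in WT, was 0.36 ± 0.03 FPKM at day 0 and 0.23 ± 0.05 FPKM at day 2 (SD, n = 2) in KO (difference -2.59 ± 0.14 (SE), adjusted p = 5.8e-11). For these 3 genes the WT day 2 libraries stood above the KO libraries of both days. Among p53 genes 13 of 15 had a higher change in KO and 1 a lower one, or 13 and 2 after scaling, and among Notch genes 12 of 14 had a higher change with either. Bbc3 (Puma) differed by 1.39 and Jag2, a Notch ligand, by 2.11. Socs3 fell in both lines, by less in KO (difference 2.14 ± 0.11 (SE), adjusted p = 2.1e-11).

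**Figure D5:**
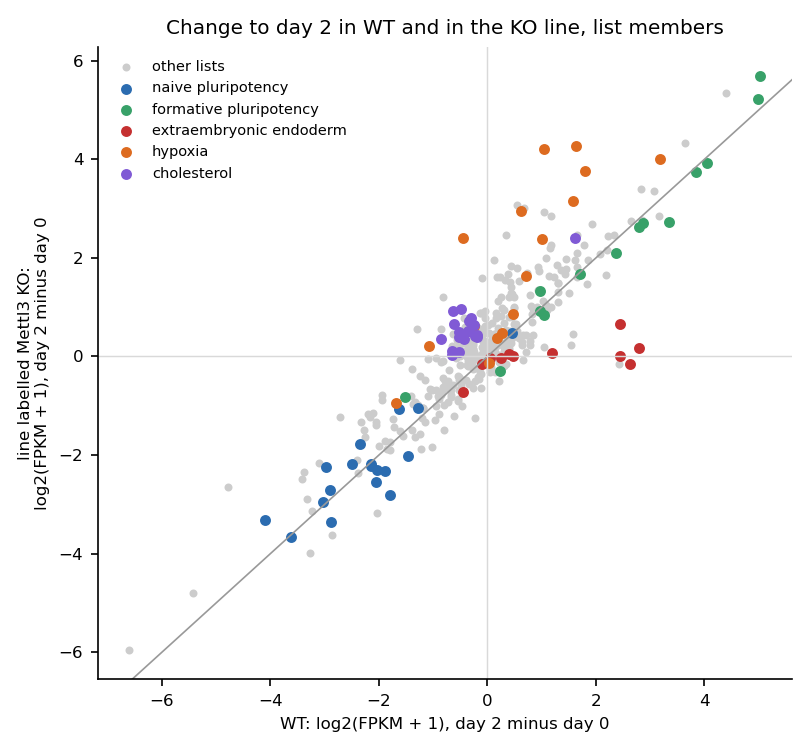
Change in log2(FPKM + 1) from day 0 to day 2 in the line labelled Mettl3 KO (vertical) against WT (horizontal) for tested list members, with 5 lists in colour; the grey diagonal marks equal change. Naive and formative genes lie around the diagonal, all 20 cholesterol and most hypoxia genes above it, and Amn, Cubn, Ttr and Dab2 below it on the right.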

How the data were processed

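Polyadenylated RNA was sequenced as paired-end reads, per the labels. The deposited table holds FPKM for 55492 rows. Per the submitters' processing notes STAR, Cuffdiff and mm10 were used, with no versions or roles stated. The unit was taken from the table's name and values. An exact 0 can be a failed estimate. Columns were matched to samples by library name. Depth was recovered from the spacing of low FPKM of genes with 1 transcript: the share of low values that came within 0.2 of a whole number of fragments was 86.5% to 90.5%. Chance gives 40% at a depth fixed beforehand. Depth was chosen here to fit these same values, so the share is not a test of it. Positions are from GENCODE M21 (GRCm38), which matched 99.5% of rows by gene ID. Promoter sequences are from RefSeq GRCm38.p6.

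Tests used limma 3.58.1 in R 4.3.3 on log2(FPKM + 1): 1 fit of 32 libraries in 16 groups, with 16 residual degrees of freedom, eBayes with a mean-variance trend, and adjustment over 16276 genes. The groups therefore share 1 estimate of spread. On simulated data of 16276 genes with 200 changed, 76.1% were recovered at a log2 change of 0.5, 91.9% at 1 and 99.1% at 2, and 6.09% of calls were false. The simulation gave all groups the same spread and changed far fewer genes than the 10321 called here. These rates therefore need not hold for the data. The genes named are members of 33 lists (440 genes, 413 tested) and the 15 largest rises and 15 largest falls among called coding genes with a mean of at least 5 FPKM in the higher group and no overlap between libraries. The members and lists were chosen with earlier results of these data known. Alternatives were another pseudocount, other filters, median-of-ratios scaling, only the groups compared, a replicate block, no chromosome 8 genes, and leaving out each library. Some members of the cholesterol list are not reported here by name.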

Additional observations from a re-analysis of the deposited data

Results flagged for a closer look

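WT and the line labelled Mettl3 KO differed in their change to day 2 by at least 1 on the log2 scale, with an adjusted p under 0.05 in limma's interaction test, for 757 genes, or 620 after median-of-ratios scaling. Differences below are KO minus WT for the genes named above. In the hypoxia and glycolysis lists Adm differed by 3.17, Ddit4 by 2.62, Egln3 by 1.97, Slc2a3 by 1.53 and Vegfa by 1.29. In the extraembryonic endoderm list the differences were -2.78 for Amn, -2.61 for Cubn, -2.45 for Ttr and -1.79 for Dab2. Ttr is listed at 0 in the day 0 libraries of WT and in the KO libraries of both days, so its value rests on the day 2 libraries of WT alone. In the cholesterol list Msmo1 differed by 1.57, Dhcr7 by 1.44 and Hmgcs1 by 1.06. Among signalling genes Cyp26a1 differed by -2.59, Socs3 by 2.14, Jag2 by 2.11, Fst by 1.68, Smad7 by 1.17, Id3 by -1.12, Gli2 by 1.07 and Hes1 by 1.05. The imprinted genes that fell in WT, Phlda2 and Peg10, differed by 1.85 and 1.40. Of the anterior and neural factors Hesx1 differed by -1.31 and Sox1 by 1.14. The remaining differences were 1.39 for Bbc3, 1.06 for Egr1, 1.05 for Junb, 1.49 for Nid1, 1.03 for Tet2 and 1.03 for Msc. Exosc6 differed by 1.95, but it is listed at 0 in all 4 day 0 libraries of both lines, so that value compares day 2 levels only.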

How the results depend on the processing

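The count of WT genes called between day 0 and day 2 stayed within 1.5 times of 10321 under every alternative run. It was 8206 with only the groups compared in the fit, 7001 among genes with a mean of at least 5 FPKM and 9381 to 9833 when a WT library was left out. With a change of at least 1, the count of 1790 became 3126 with a pseudocount of 0.1 and 971 among genes with a mean of at least 5 FPKM, and 1785 to 1883 when a library was left out. Day 4 against day 2 gave 6469 among genes with a mean of at least 5 FPKM, where fewer genes were tested. The samples share a replicate number but the numbers did not pair them: the correlation of deviations between the WT day 0 and day 2 libraries of the same number was -0.0884, and the replicate block moved the counts to 10332, 1788, 7904 and 9744.

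Of the named genes that did not pass the test, the sign turned for Axin2 without day 0 library 2 (0.0692, and -0.164 without library 1), for Car9 without day 0 library 1 (-0.108) or day 2 library 2 (-0.0459, and up to 0.445), and for Sox7 without day 0 library 2 (-0.0834) or day 2 library 2 (-0.022, and up to 0.181). Calls were lost for Aldh1a2, Col1a1, Mettl3 and Pou5f1 without day 0 library 2, for Gata6 with a pseudocount of 0.1, and for Dhcr7, Mettl3 and Pfkp with only the groups compared. Dlk1 passed after scaling, Dppa4 with only the groups compared, and Rax with a pseudocount of 0.1 (log2 change -0.54). Medians near 0 turned sign for the early neural (-0.17), hedgehog (-0.09), retinoid (0.17) and Wnt (-0.01) lists among genes with a mean of at least 5 FPKM. A pseudocount of 0.1 moved the medians of the germline list to -0.84 and the two-cell list to -3.11. The cause was not tested. Depth limits genes near 0.05 FPKM, such as Fgf5 in day 0 library 1.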
